A study of Drosophila melanogaster with 48 samples.

Results

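The Jonah genes encode serine endopeptidases of the Drosophila midgut, and the 10 described here were Jon25Bi, Jon25Bii, Jon25Biii, Jon44E, Jon65Aiii, Jon65Aiv, Jon66Ci, Jon66Cii, Jon74E and Jon99Ci. They were chosen by their FlyBase symbols and are 10 of the 16185 gene identifiers that the tables list and 10 of the 16 Jonah genes that carry a symbol of this kind. Each of the 6 deposited tables had a row for all 10. RNA came from guts and fat bodies of adult females of 3 genotypes. S106>Xbp1s flies overexpress the spliced, active form of Xbp1, S106>Xbp1U flies overexpress a mutated form that cannot be spliced, and S106>Wdah flies carry the driver alone. All share the S106 GeneSwitch driver, which is active in gut and fat body once the inducer RU486 is fed, and the outbred, Wolbachia-free wDah background with its white mutation. Every fly was mated, and then fed RU486 (RU+) or its vehicle (RU-) for 7 days.

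The 48 libraries fell into 12 groups of 3 to 5, each library being a pool of guts or of fat bodies. S106>Xbp1s had 3 gut libraries and 4 fat body libraries per treatment. S106>Xbp1U had 4 gut libraries per treatment, with 4 (RU+) and 3 (RU-) from fat body. S106>Wdah had 5 fat body libraries per treatment, with 4 (RU+) and 5 (RU-) from gut. As driver and inducer reach both tissues in the same fly, a change in 1 tissue may follow from expression in either. Fat bodies were taken with the abdominal cuticle attached. The tables hold, for each gene, a mean normalized count over both treatments, a log2 fold change (RU+ relative to RU-) with its standard error (SE), and p-values, but no value of a single library, so whether individual RU+ and RU- libraries overlap is not known here.

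Jonah proteases belong to the trypsin and chymotrypsin family of serine proteases and are named after the chromosome bands from which they are transcribed. Enterocytes, the absorptive and secretory cells of the midgut epithelium, make them and release them into the gut lumen, where they cut dietary protein together with the trypsins. The fat body, which combines functions of liver and adipose tissue, is not known as a site of digestive protease production. Xbp1s is the transcription factor of the endoplasmic reticulum unfolded protein response, which adjusts folding and export of secreted proteins, and enterocytes that secrete digestive enzymes rely on that route.

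Several of the genes lie in tandem groups. Positions are given on BDGP6, the assembly that dm6 also denotes. Jon25Bi (FBgn0020906), Jon25Bii (FBgn0031654) and Jon25Biii (FBgn0031653) lie side by side on the minus strand of chromosome 2L, between 4949941 and 4955144, a span of 5.2 kb. Jon65Aiii (FBgn0035665) and Jon65Aiv (FBgn0250815) lie on the plus strand of 3L in a 15.3 kb stretch from 6039155 to 6054443 that also holds Jon65Ai and Jon65Aii. Jon66Ci (FBgn0035886) and Jon66Cii (FBgn0035887) are neighbours on opposite strands of 3L between 8391540 and 8393649. Jon99Ci (FBgn0003358) belongs to a group with Jon99Cii and Jon99Ciii on 3R between 29922216 and 29926189. Jon74E (FBgn0023197) lies on 3L at 17548077 to 17549127 and Jon44E (FBgn0001285) on 2R at 8691448 to 8692844, and neither has another Jonah gene beside it. The gene models are short, with 1 to 3 exons and 827 to 1397 bp of exon, and encode proteins of 258 to 276 residues. How alike the tandem copies are in sequence was not examined here, and reads of like copies could be split or lost between them in counting. Jon44E shares 49 bp of its 1397 bp of exon with CG8586 on the opposite strand, and whether the counting used strand is not given in the sources used here.

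The first question was how abundant these transcripts were in the tissue that is known to make them. In gut the 10 genes together took 4.85% of all normalized counts in S106>Xbp1s, 4.55% in S106>Xbp1U and 3.68% in S106>Wdah. All 16 Jonah genes took 6.85%, 6.29% and 5.20% in the same order. The tables were normalized separately, and these shares are means over both treatments with no spread known, so they are given without a test.

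The 10 genes covered a wide range of gut levels. In CPM, the mean normalized count scaled to a common table total, and per kb of exon, in the S106>Xbp1s gut Jon65Aiv stood at 21125 and ranked 4th of all genes, Jon65Aiii stood at 18736 and ranked 6th, and Jon25Biii stood at 9195 and ranked 9th. On the same scale Jon25Bi stood at 3439, Jon25Bii at 1512, Jon99Ci at 670 and Jon44E at 291. At the low end Jon66Ci stood at 51.2, Jon74E at 40.6 and Jon66Cii at 2.04. Jon65Aiv, Jon65Aiii and Jon25Biii were the 3 highest in this order in every genotype, and Jon66Cii was the lowest in each, at 1.22 in S106>Xbp1U and 2.58 in S106>Wdah. The summed share is therefore set mainly by the Jon65A and Jon25B genes.

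**Figure D1:**
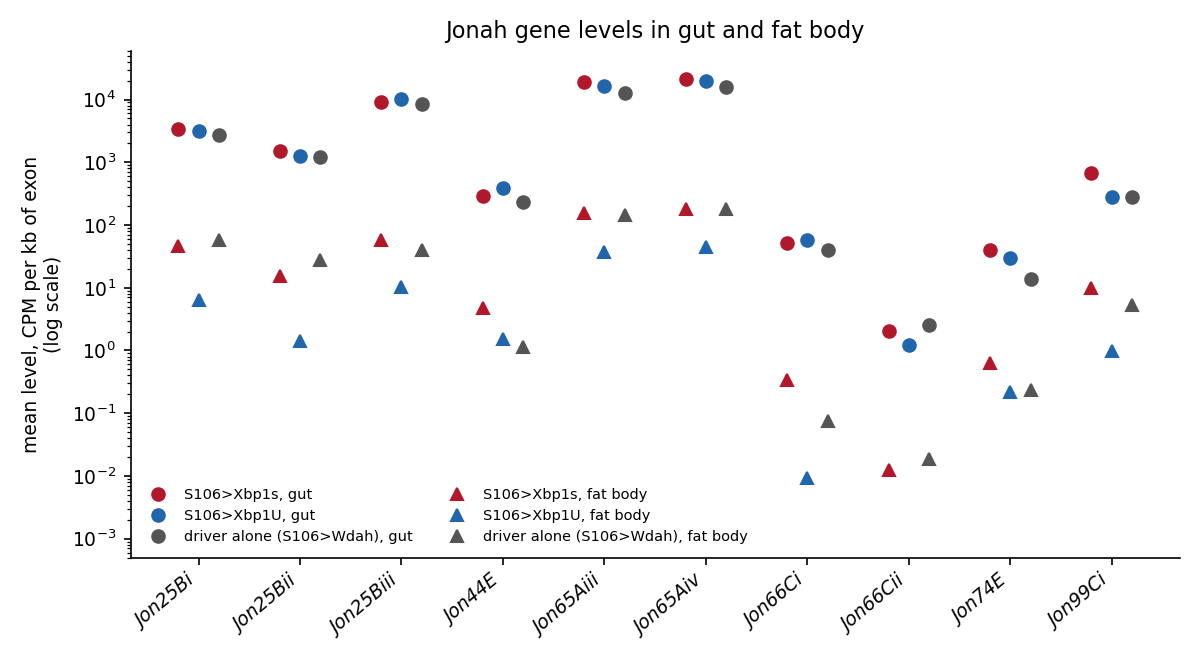
Mean level in CPM per kb of exon (log axis) of the 10 Jonah genes in gut (circles) and fat body (triangles) of the 3 genotypes, each point being the mean of 1 table over both treatments, with no error bar because the tables give no spread of the levels. Jon65Aiv and Jon65Aiii stand at the top in both tissues, and every triangle lies below every circle of the same gene. Jon66Cii is at 0 in S106>Xbp1U fat body and has no triangle there.

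In fat body the 10 genes took 0.0415% of counts in S106>Xbp1s, 0.00924% in S106>Xbp1U and 0.0409% in S106>Wdah. Gene by gene, the fat body level was 0.616% to 1.62% of the gut level in S106>Xbp1s, with a median of 0.932%. It was 0.19% to 2.34% in S106>Wdah (median 1.14%) and 0% to 0.728% in S106>Xbp1U (median 0.215%). The trypsins, the other main endopeptidases of the midgut, had medians of 0.875% in S106>Xbp1s, 0.716% in S106>Wdah and 0.213% in S106>Xbp1U on the same measure. For 12 genes of the fat body marker list, yolk protein and lipoprotein genes among them, the medians were 3719% in S106>Xbp1s, 1875% in S106>Wdah and 2515% in S106>Xbp1U. The lowest value among these markers was 51.2%, for CG9510 in S106>Xbp1s. The Jonah transcripts were thus present in fat body at a level far under that of the gut. Their summed share and median percent were lowest in S106>Xbp1U, though Jon44E was at 2.15 CPM there and 1.59 in S106>Wdah. These values are means over both treatments from tables normalized separately, and the order of genotypes was not tested. Whether these reads came from fat body cells or from other tissue was not tested.

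**Figure D2:**
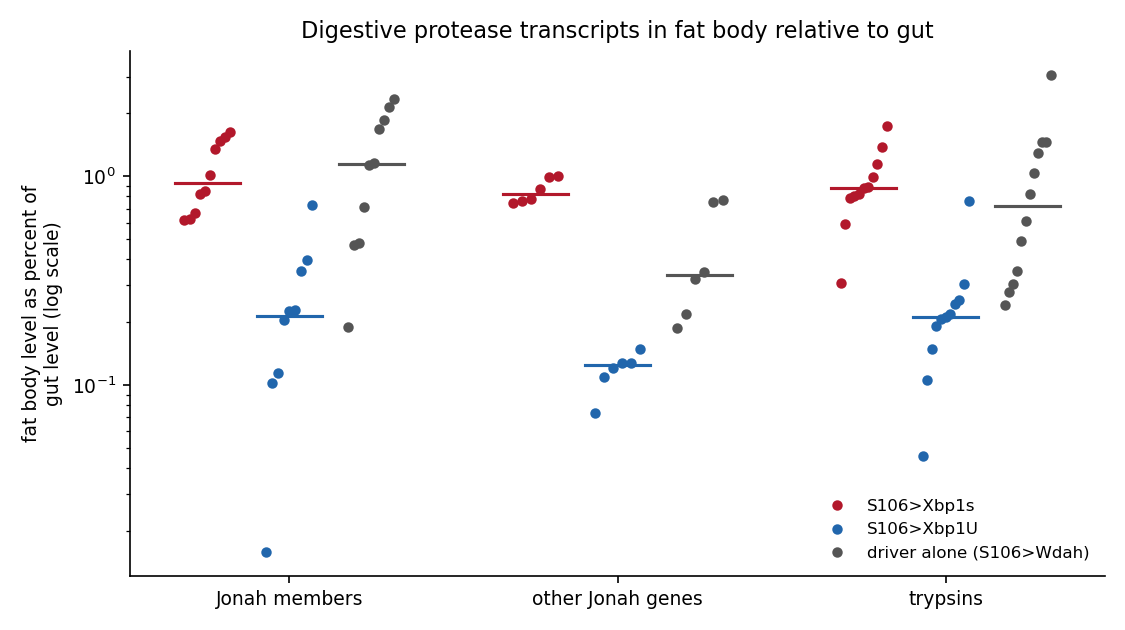
Fat body level as a percent of gut level (log axis) for the 10 Jonah genes, the 6 other Jonah genes and the trypsins in the 3 genotypes, each dot being 1 gene and each line the median of its list. The medians of the 10 genes are 0.932% in S106>Xbp1s, 0.215% in S106>Xbp1U and 1.14% in S106>Wdah, and a gene at 0 has no dot.

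The next question was whether overexpression of Xbp1s changed the proteases in the gut. None of the 10 genes was called at a false discovery rate (FDR) of 10% in the S106>Xbp1s gut, by the Wald test of the authors' DESeq2 fit with Benjamini-Hochberg adjustment, where 1.38% of all genes tested were called. The main genes moved little. Jon65Aiii had a log2 fold change of -0.25 (SE 0.17), Jon65Aiv of -0.18 (SE 0.17), Jon25Biii of -0.11 (SE 0.17) and Jon25Bi of -0.27 (SE 0.24). The 95% interval of Jon65Aiii ran from -0.58 to 0.08 and that of Jon65Aiv from -0.51 to 0.15, so a halving or a doubling of either lay outside it. For 8 of the 10 genes the interval stayed within a 2-fold change in both directions, the exceptions being Jon25Bii at -0.50 (SE 0.49) and the scarce Jon66Cii at 0.19 (SE 0.54).

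In that comparison 6 of the 10 fold changes were below 0, with a median of -0.15 against 0.01 over all 9038 genes with a mean count of 10 or more. Jon74E, the scarce gene of band 74E, had the highest value, 0.48 (SE 0.22), with an unadjusted p of 0.032 and an adjusted p of 0.927. It was the sole member under an unadjusted p of 0.05, and 2.25% of all genes were so in the upward direction. Jon66Ci stood at -0.41 (SE 0.29), Jon99Ci at 0.11 (SE 0.24) and Jon44E at 0.07 (SE 0.13). From the mean, the fold change and the listed number of libraries, the summed level of the 10 genes came to 51885 CPM in RU- and 45157 CPM in RU+. That 0.870-fold ratio carries no test of its own.

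In the gut of S106>Xbp1U flies none of the 10 was called, against 0.092% of all genes tested. Jon65Aiii stood at 0.05 (SE 0.13), Jon65Aiv at 0.09 (SE 0.14), Jon25Biii at 0.01 (SE 0.14) and Jon25Bii at -0.00 (SE 0.15). Jon25Bi, at 0.32 (SE 0.16), was the one gene under an unadjusted p of 0.05, with a p of 0.042 and an adjusted p of 1. Such a p in the upward direction was held by 0.842% of all genes. The largest value, 1.56 for Jon66Ci, came with an SE of 0.88. The median of the 10 was 0.09, and 8 of the 10 intervals lay within a 2-fold change.

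In the gut of the driver-alone flies, where RU486 is fed with no transgene to induce, all 10 fold changes were above 0, with a median of 0.36 against -0.01 over all genes. None was called at an FDR of 10%, against 0.262% of all genes tested. An unadjusted p under 0.05 in the upward direction was held by Jon66Ci, Jon44E and Jon99Ci, 3 of 10, against 1.47% of all genes. Jon66Ci stood at 1.28 (SE 0.37), or 2.44-fold, with an unadjusted p of 0.000476 and an adjusted p of 0.137. Jon44E stood at 0.63 (SE 0.28) and Jon99Ci at 0.49 (SE 0.23). The abundant genes had smaller values, 0.28 (SE 0.20) for Jon65Aiii, 0.24 (SE 0.23) for Jon65Aiv and 0.04 (SE 0.25) for Jon25Biii. The summed level came to 34170 CPM in RU- and 40118 CPM in RU+. In that comparison 8 Malpighian tubule markers had a median of -1.20 and summed to 303 CPM in RU- and 160 in RU+, with none called. Of the 8, 3 were lower at an unadjusted p under 0.05, against 181 of 9519 genes at a mean of 10 or more. The part of the tubule markers in the protease values was not tested.

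**Figure D3:**
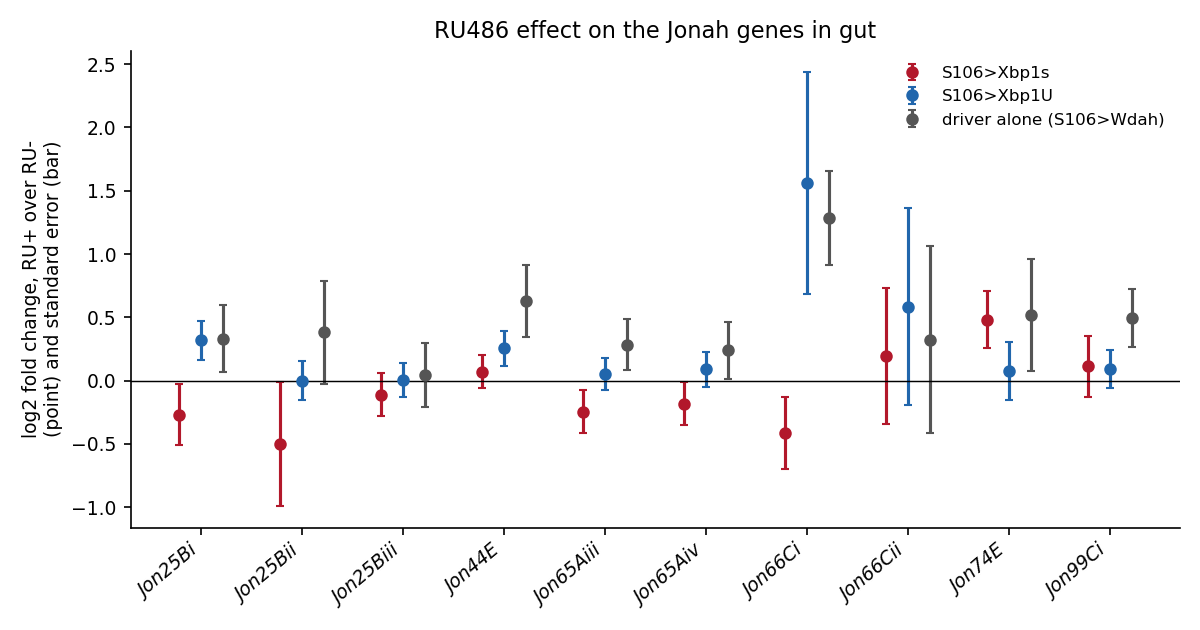
Log2 fold change with RU486 in gut (points) with its standard error (bars) for the 10 Jonah genes in S106>Xbp1s, S106>Xbp1U and the driver alone. All 10 driver-alone points lie above 0, 6 of the 10 S106>Xbp1s points lie below 0.

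Since the driver alone is the control for RU486 itself, the effects were subtracted from each other. In gut all 10 genes had a lower effect in S106>Xbp1s than in S106>Wdah, with a median difference of -0.48 on the log2 scale against 0.02 over all genes. The 10 values share the same libraries and are not 10 independent observations. None of the differences passed an FDR of 10% in a z test over 8971 genes, 0.0446% of which did. Jon66Ci had the largest difference, -1.70 (SE 0.47), with an unadjusted p of 0.000274 and an adjusted p of 0.246. Jon65Aiii differed by -0.53 (SE 0.26), with an unadjusted p of 0.0442. These 2 genes were under an unadjusted p of 0.05, as were 2.62% of all genes. The trypsins had a median difference of -0.10, with 8 of 11 lower, and the 6 other Jonah genes one of -0.32, with 6 of 6 lower.

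Against S106>Xbp1U, the S106>Xbp1s gut effect was lower for 8 of the 10 genes, with a median difference of -0.28 and none called, against 0.29% of all genes. Jon25Bi differed by -0.59 (SE 0.29) and Jon66Ci by -1.97 (SE 0.92), with unadjusted p-values of 0.0406 and 0.0325, a p under 0.05 being held by 3.07% of all genes. The S106>Xbp1U and driver-alone effects in gut differed by a median of -0.19, and no gene at all was called in that z test, while 130 of 9138 genes (1.42%) had an unadjusted p under 0.05, no Jonah gene among them.

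In the fat body of S106>Xbp1s flies 2 Jonah genes rose. Jon25Bi went up 6.33-fold with RU486, a log2 fold change of 2.66 (SE 0.60) with an adjusted p of 0.00109. Jon25Bii, its neighbour in the same cluster, rose 3.74-fold, by 1.90 (SE 0.49) with an adjusted p of 0.00575. These were 2 of the 5 members that had an adjusted p, and 12% of all genes tested were called in this table, 6.08% in the upward direction. The levels behind these folds were low. Jon25Bi went from an implied mean normalized count of 277 in RU- to 1753 in RU+, and Jon25Bii from 146 to 545, beside overall means of 69644 and 31604 in the gut table of the same genotype.

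Jon99Ci had nearly the same fold change, 2.05 (SE 0.52), with an unadjusted p of 8.63e-05. It carried no adjusted p because its mean of 226 lay below 255, the lowest mean with one after the authors' independent filtering, and its adjusted p over all genes would be 0.0103. Jon65Aiv and Jon65Aiii, the most abundant of the family, stood at 1.56 (SE 0.69) and 1.34 (SE 0.64), with adjusted p-values of 0.147 and 0.184. Their implied means went from 2066 to 6078 and from 1924 to 4873. Jon74E stood at 2.64 (SE 1.07) with an unadjusted p of 0.0136, but from an implied mean of 3.95 to 24.6, so that its presence above a mean count of 10 rests on the RU+ libraries.

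The remaining 4 genes were not resolved from 0. Jon25Biii, the most abundant of the Jon25B genes in gut, stood at 0.18 with an SE of 1.10, and its implied means were 1102 and 1253. The interval of Jon25Biii, from -1.98 to 2.35, takes in the value of Jon25Bii, and the difference between copies could not be tested because the tables hold no covariance between genes. Jon44E stood at 0.59 (SE 0.78). Its neighbour CG8586, with which it shares exon, had a mean of 3738 in this table against 165 for Jon44E. CG8586 was called lower, at -0.32 (SE 0.09, adjusted p 0.0123), where 12% of all genes tested were called. Jon66Ci and Jon66Cii had means of 7.16 and 0.264 and SEs of 2.22 and 3.50, which do not resolve a direction at this depth. All 10 fold changes were above 0, those of Jon66Ci and Jon66Cii with no direction resolved. With Jon74E set aside, the 7 others at a mean of 10 or more had a median of 1.56. The median over all genes at that mean was -0.00. Of these 7 members, 5 had an unadjusted p under 0.05 in the upward direction, against 8.65% of all genes at a mean of 10 or more. Genes of similar exonic length, 800 to 1000 bp, had a median of -0.09. The summed level of the 10 went from 228 to 601 CPM.

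The fat body of flies without a transgene also had positive fold changes for these genes, none of which was called. In S106>Wdah, Jon25Bi stood at 3.68 (SE 1.21), from an implied mean of 178 to 2285, and Jon25Bii at 2.77 (SE 1.28), from 156 to 1062. Jon65Aiii stood at 2.61 (SE 1.10), Jon65Aiv at 2.36 (SE 1.06) and Jon99Ci at 1.78 (SE 0.84). These 5 genes had unadjusted p-values of 0.00233 to 0.0351, against 0.831% of all genes under 0.05 in the upward direction. At an FDR of 10% all 10 missed the threshold, with adjusted p-values of 1, against 0.0068% of all genes tested. Jon25Biii was again near 0 relative to its error, at 0.68 (SE 1.15), and Jon44E stood at -0.50 (SE 0.58). The SE of Jon25Bi was 1.21 here and 0.60 in S106>Xbp1s. The summed level went from 133 to 684 CPM.

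In S106>Xbp1U fat body the same genes lay near 0 relative to their errors. Jon25Bi stood at -0.05 (SE 0.96), Jon25Bii at -0.20 (SE 1.40), Jon65Aiii at 0.13 (SE 0.63), Jon65Aiv at -0.19 (SE 0.54) and Jon99Ci at -0.01 (SE 1.21). None of the 9 genes with an adjusted p was called, against 0.0968% of all genes tested, and Jon66Cii was listed at a mean of 0. The summed level was 94.4 CPM in RU- and 91.0 CPM in RU+. No member had an unadjusted p under 0.05, against 0.604% of all genes in the upward direction. With SEs of 0.54 or more, no member had an interval that stayed within a 2-fold change in both directions.

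**Figure D4:**
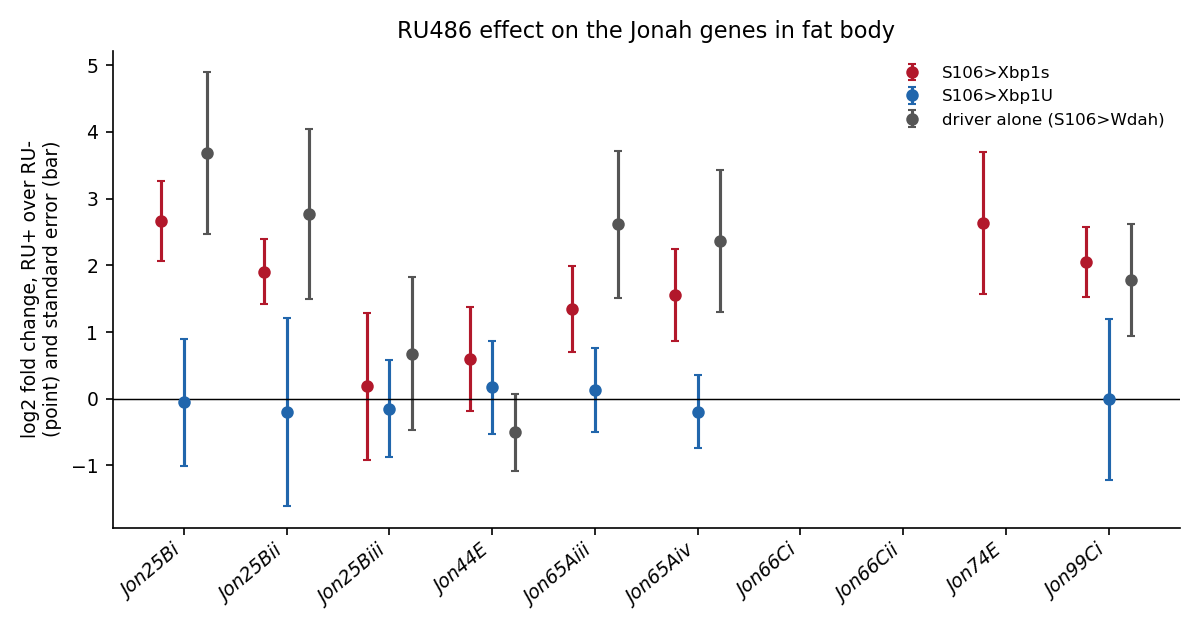
Log2 fold change with RU486 in fat body (points) with its standard error (bars) for the Jonah genes with a mean normalized count of 10 or more in S106>Xbp1s, S106>Xbp1U and the driver alone. Jon25Bi, Jon25Bii, Jon65Aiii, Jon65Aiv and Jon99Ci lie above 0 by more than their bars for S106>Xbp1s and the driver alone and near 0 for S106>Xbp1U, while the bars of Jon25Biii and Jon44E cross 0 in all 3 genotypes.

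When the fat body effects were subtracted from each other, no excess of S106>Xbp1s over the driver alone was detected. Jon25Bi differed by -1.02 (SE 1.35) and Jon25Bii by -0.86 (SE 1.37), S106>Xbp1s being the lower. Of the 7 members whose mean count was 10 or more in each table, 5 were lower and none was called, against 0.0211% of all genes tested, nor was any under an unadjusted p of 0.05, against 1.83%. The interval for Jon25Bi, from -3.66 to 1.63, is too wide to show that the effects were alike. Between S106>Xbp1U and the driver alone, Jon25Bi differed by -3.74 (SE 1.54), Jon65Aiv by -2.55 (SE 1.19) and Jon65Aiii by -2.48 (SE 1.27). These 3 were under an unadjusted p of 0.05, as were 1.59% of all genes, and none passed an FDR of 10%, against 0.0736%. Between S106>Xbp1s and S106>Xbp1U, all 7 members were higher in S106>Xbp1s, with a median difference of 1.75. None was called there, against 0.0941% of all genes, and Jon25Bi, at 2.72 (SE 1.13), and Jon65Aiv, at 1.75 (SE 0.88), had unadjusted p-values of 0.0159 and 0.0461, with 2.91% of all genes under 0.05.

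The tissues themselves were compared within a genotype. In S106>Xbp1s the Jon25Bi effect was lower in gut than in fat body by a log2 difference of -2.93 (SE 0.64), with an adjusted p of 0.00655 in a z test over 8674 genes. It was the one member called among 8 tested, against 0.334% of all genes. With Jon74E set aside, since its fat body mean passes 10 through the RU+ libraries alone, all 7 others were lower in gut and 5 had an unadjusted p under 0.05, against 5.28% of all genes. Jon25Bii differed by -2.40 (SE 0.69) and Jon99Ci by -1.94 (SE 0.57), with adjusted p-values of 0.123 and 0.156. In the driver-alone flies Jon25Bi differed by -3.35 (SE 1.24) and Jon65Aiii by -2.33 (SE 1.12), with none called against 0.0222% of all genes and these 2 under an unadjusted p of 0.05 against 1.45%. In S106>Xbp1U the differences of the 7 genes tested lay between -0.08 and 0.37, with none called against 0.0573% and none under an unadjusted p of 0.05 against 1.72%. Gut and fat body came from the same flies, which these tests do not take into account.

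Other midgut genes were read beside the proteases. In S106>Xbp1s fat body 4 of 12 trypsin genes had an adjusted p and 2 of these were called, both higher, where 12% of all genes were called and 6.08% upward. The called trypsins were epsilonTry at 2.05 (SE 0.41, adjusted p 0.000103) and betaTry at 1.76 (SE 0.61, adjusted p 0.0498), and the trypsins as a list had a median of -0.39 with values down to -2.50. Of 29 other digestive enzyme genes, 28 were listed and 12 had an adjusted p. Called among those were 2, again against 12% of all genes, the maltases Mal-A6 at 2.20 (SE 0.61) and Mal-A1 at 2.17 (SE 0.76). In the driver-alone fat body the one gene called in the whole table was a further maltase, Mal-A7, at 4.15 (SE 0.89, adjusted p 0.0418), and it is therefore absent from the other fat body tables. The fold changes of epsilonTry, betaTry and alphaTry in S106>Wdah fat body stood at 3.01 (SE 1.17), 2.62 (SE 1.15) and 2.43 (SE 1.11), none called. The 11 trypsins with a mean count of 10 or more had a median of 1.56 there, and 6 had an unadjusted p under 0.05 in the upward direction, against 0.831% of all genes.

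A list of 8 enterocyte markers was read in fat body as well. None of the 8 was at 0 there, and their summed level went from 299 to 757 CPM in S106>Xbp1s, from 232 to 939 in S106>Wdah and from 147 to 180 in S106>Xbp1U. In gut the same list stood at 38328 to 50388 CPM in all groups. In fat body all 8 fold changes were above 0 in S106>Xbp1s (median 1.28) and S106>Wdah (median 1.17), and 6 of 8 in S106>Xbp1U (median 0.13). An unadjusted p under 0.05 in the upward direction was held by 4 in S106>Xbp1s, against 8.65% of all genes, and by 3 in S106>Wdah, against 0.831%. Called were 2 of the 5 with an adjusted p in S106>Xbp1s, against 12% of all genes. The list holds betaTry and Mal-A1, which are the 2 called, alphaTry and Amy-p, all digestive enzymes themselves. Of the rest, mex1, a midgut membrane protein, stood at 0.08 (SE 0.73) in S106>Xbp1s, the lowest of the list there, and at 0.15 (SE 0.77) in S106>Wdah. The enterocyte transcription factor nub stood at 1.49 (SE 0.87) and 0.41 (SE 0.74). Both had means under 100 in fat body. The markers cad and Myo31DF were expressed in S106>Xbp1s fat body at 47.2 and 37.3 CPM, which is 97.3% and 11.3% of their gut levels, so cad does not separate the tissues. The part that midgut tissue or its RNA had in the rise of the fat body Jonah transcripts was not tested, and in bulk RNA a change in the number of cells of a type cannot be told apart from a change in RNA per cell.

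Fat body markers summed to 125903 CPM in RU- and 103588 in RU+ in S106>Xbp1s fat body. All genes together summed to 1042867 and 957133 on this scale. Of the 12 fat body markers with an adjusted p, 2 were called lower, Yp2 and Lsd-1, against 12% of all genes called. Of 8 muscle markers 6 were called lower there, against 12% of all genes called. Enteroendocrine (10 genes), stem cell (5 genes) and hemocyte markers (5 genes) gave no calls, but in S106>Xbp1s fat body only 1, 1 and 4 of them had an adjusted p. Of the Malpighian tubule list 6 of 8 had an adjusted p in S106>Xbp1s gut, where its sum went from 95.7 to 55.7 CPM. Called lower there were 3 of the 6, against 1.38% of all genes, and 1 of 6 in the fat body, against 12%. Ovary and eggshell genes summed to 2882 CPM in RU- and 2675 in RU+ in S106>Xbp1s fat body, and to 5115 and 5123 in S106>Wdah. In the former 3 of the 10 with an adjusted p were called higher, against 12% of all genes called. In S106>Xbp1U fat body their sum went from 5757 to 1302 CPM. Called there was 1 of 11, against 0.0968% of all genes. Of the 11, 5 were lower at an unadjusted p under 0.05, against 166 of 9766 genes at a mean of 10 or more, and none was higher. In S106>Xbp1U gut 1 of 11 was called higher, against 0.092%. Their part in the protease values was not tested.

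Chromosomal neighbours were read next, apart from CG8586 beside Jon44E, which is given above. Beside the Jon25B cluster in S106>Xbp1s fat body, Marcal1 stood at 0.07 (SE 0.21), jet at -0.30 (SE 0.16) and betaggt-I at 0.03 (SE 0.14), all below the call threshold. Next to Jon65Aiv, the midgut protease gene yip7 stood at 1.19 (SE 0.73) in S106>Xbp1s, 2.32 (SE 1.04) in S106>Wdah and -0.46 (SE 0.53) in S106>Xbp1U, none called. CG10477, on the same side, stood at -0.68 (SE 1.42), 0.57 (SE 0.72) and 1.48 (SE 1.07) in that order, and CG6462 had means under 10. Beside Jon74E, CG7542 stood at 1.22 (SE 1.04) in S106>Xbp1s, 2.98 (SE 0.69, adjusted p 0.129) in S106>Wdah and -0.87 (SE 0.62) in S106>Xbp1U, while Nedd4 and CycT stood at 0.13 (SE 0.09) and 0.15 (SE 0.07) in S106>Xbp1s. On the far side of the Jon65A group, tant stood at 0.09 (SE 0.17) in S106>Xbp1s.

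Genes known to regulate digestive enzyme expression were examined as a list of 14, which included the midgut GATA factor GATAe and the activin-like ligand daw, which represses digestive enzymes in the glucose response. None was called in gut in any genotype. In S106>Xbp1s fat body daw was the one gene called, at -0.39 (SE 0.14, adjusted p 0.0678), of 12 with an adjusted p, against 12% of all genes. GATAe stood at 0.95 (SE 0.74) in S106>Xbp1s fat body and at -0.70 (SE 0.97) in S106>Wdah fat body, from means under 100. In S106>Xbp1s gut one digestive gene of the wider list was called, LysB, a digestive lysozyme, at -0.59 (SE 0.16, adjusted p 0.0212). It was 1 of 25 with an adjusted p, against 1.38% of all genes called. Of the 25, 5 were lower at an unadjusted p under 0.05 and none higher, against 151 of 9038 genes lower at a mean of 10 or more. In the driver-alone gut 4 lysosomal alpha-mannosidase genes (LManIII, LManIV, LManV and LManVI) were called higher and Try29F lower, and all 5 are absent from the other gut tables. In the driver-alone gut 0.262% of all genes tested were called.

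The 6 Jonah genes outside the set, Jon65Ai, Jon65Aii, Jon99Cii, Jon99Ciii, Jon99Fi and Jon99Fii, had an adjusted p in each table and were not called in any, against 0.0068% to 12% of all genes called by table. In S106>Xbp1s fat body their fold changes had both signs, and none had an unadjusted p under 0.05. Jon99Cii and Jon99Ciii, neighbours of Jon99Ci, stood at 1.37 (SE 0.82) and 1.40 (SE 0.78). Jon65Ai and Jon65Aii, beside Jon65Aiii, stood at -1.75 (SE 1.39) and -2.40 (SE 1.54), and Jon99Fi and Jon99Fii at -0.06 (SE 1.23) and -1.24 (SE 1.39). Their summed level went from 142 to 187 CPM.

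The pattern of the 10 genes over the 6 comparisons was summarised by the median log2 fold change in each. That median took in members with means under 10 in fat body. The 8395 other genes with a mean count of 10 or more in every comparison were ranked by their root mean square distance from it. The nearest was CG43055 at 0.255, followed by CG13325 at 0.267, betaTry at 0.295, CG34026 at 0.329 and Mal-A6 at 0.332, all on the log2 scale over 6 values. Among the 10 genes Jon65Aiv was closest to their own median, at 0.174, and Jon44E farthest, at 1.14. A trypsin and a maltase were thus among the 5 genes outside the family that lay nearest to the median of the set. Of the members themselves only Jon65Aiv, Jon99Ci (0.202) and Jon65Aiii (0.305) lay nearer to it than Mal-A6.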

How the data were processed

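Poly(A) RNA was sequenced as read pairs. The authors checked reads with FastQC, aligned them to dm6 with HISAT2, counted them over exons per gene with featureCounts, removed outlying samples and tested the effect of RU486 in DESeq2, separately for each genotype and tissue. Whether every listed library entered the fit is not given in the sources used here. The signal deposited is the mean of counts divided by size factors over both treatments. The deposited log2 values are fold changes (RU+ relative to RU-) with standard errors. The score among the deposited columns is the Wald statistic. The deposited p-values come without adjustment, with Benjamini-Hochberg adjustment and with hypothesis weights. A gene called in the driver-alone comparison is missing from the tables of the other genotypes for the same tissue.

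Since neither single-library values nor total counts per library are given, depth per library is unknown and no new model was fitted, so the deposited columns were used directly, with calls at an FDR of 10%. Levels are means as a share of the table total, divided by the exonic length in the BDGP6 annotation of Ensembl release 115. RU- and RU+ levels are implied from the mean, the fold and the listed library numbers. Both are scaled to the table total over both treatments, so all genes together need not sum alike in RU- and RU+. Effects were compared between tables with 2-sided z tests on deposited fold changes and standard errors, for genes whose mean count was 10 or more in each table, adjusted over all such genes by Benjamini-Hochberg, and the calculation was tested on simulated data. P-values measure the spread between pooled libraries. The members and all lists were chosen with earlier results of these data known. Named are all Jonah genes, the 5 nearest genes by distance and the called members of the digestive enzyme, regulator, enterocyte and fat body lists. Called muscle, tubule and ovary genes are given as counts. Of the neighbours within 5 kb some are named and others are not. Other genes named (mex1, nub, cad, Myo31DF, alphaTry, yip7, GATAe, CG8586) were picked after their values were seen. The alternatives tried were an FDR of 5%, adjustment over all genes or over those at a mean of 100 or more, no count minimum, other denominators and lengths for the levels and, added after the data were seen, the weighted p-values and equal group weights. Python 3.11.15, numpy 2.4.6, pandas 2.3.3, scipy 1.17.1 and matplotlib 3.10.9 were used.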

Additional observations from a re-analysis of the deposited data

Results flagged for a closer look

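The response of Jon25Bi to RU486 in S106>Xbp1s flies differed between the tissues. The log2 fold change was -0.27 (SE 0.24) in gut and 2.66 (SE 0.60) in fat body, a difference of -2.93 (SE 0.64) with an adjusted p of 0.00655 in the z test over all genes. The driver-alone flies had a difference of the same sign, -3.35 (SE 1.24), with an unadjusted p of 0.00677 and an adjusted p of 1.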

How the results depend on the processing

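No paired analysis was possible because the deposited tables hold no values of single libraries, and for the same reason no library could be left out in turn. Of the counts of called members compared across settings, 50 stayed within 1.5 times their value and 1 did not. Most of the 50 come from comparisons with no called member under any setting, where this limit does not measure stability. In S106>Xbp1s fat body a count of 3 instead of 2 lay at the limit itself. With a mean count of 100 or more required in each table, the number of Jonah genes whose S106>Xbp1s effect differed between gut and fat body was 2 instead of 1, Jon25Bii being the added gene at -2.40 with an adjusted p of 0.0949. Fewer genes were tested there. Among single genes 13 values kept their side of the threshold and 4 passed it, and 20 levels of the set, which carry no test, moved by less than 1.5 times. Jon99Ci in S106>Xbp1s fat body, at 2.05, had no adjusted p in the table and passed under adjustment over all genes (0.0103), over genes whose mean was 100 or more (0.00559) and with the weighted p-values (0.0272), which brings the called members from 2 to 3. The limits lie in the fat body, where the SEs of the members reached 0.49 to 3.50 in S106>Xbp1s, and in the unknown spread of single libraries.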
